A study of Gallus gallus with 6 samples.

Results

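Oxidative phosphorylation is the set of reactions by which mitochondria make ATP. Complexes I and II take electrons from NADH and succinate, complexes III and IV pass them on to oxygen while pumping protons, and complex V, the ATP synthase, uses the returning protons to make ATP. Most of the subunits are encoded in the nucleus on many chromosomes, and a smaller set is encoded in mitochondrial DNA, so the complexes draw on transcripts from both genomes. The nuclear genes of these complexes were followed here in chicken DT40 cells labelled as lacking linker histone H1, the protein that binds the DNA entering and leaving the nucleosome.

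The list named 47 nuclear subunit genes of complexes I to V. Each gene was represented by 1 probe set, the one of highest mean over the 6 arrays, and 43 of the 47 genes had one, of 13009 genes with a probe set in all. All 43 passed the filter on low signals, and 10015 genes were tested in the whole series. Complex I had 24 genes, complex II 2, complex III 6, complex IV 6 and complex V 5. NDUFA4, first described as a complex I subunit, was counted with complex IV, where it is now placed. SDHB, SDHC and CYC1 had no named probe set, COX7A2 had only a probe set that several genes share, and the mitochondrially encoded subunits were not analysed here. The 43 genes were bright on these arrays. Their mean signals lay between the 58.5 and the 99.3 percentile of all genes with a median at the 96.2 percentile, and 39 were at or above the 80th percentile.

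RNA came from growing cultures of DT40, a chicken B cell line, on single-colour Affymetrix arrays. Wild type cells, K11 cells, whose label gives an endogenous H1 knock out, and K11-5 cells, whose label gives a complete H1 null, were measured on 2 arrays each. Every culture, wild type included, was grown at 39.5 °C with 100 nM of Z-VAD-FMK, a pan-caspase inhibitor, since cells without H1 undergo apoptosis. Separate cultures for the 2 arrays of a group are not stated in the labels, nor is more than 1 clone for K11 or K11-5, so the spread behind each p-value is that of these arrays and may be technical. Both lines were compared with the same wild type arrays, so the 2 comparisons are not independent.

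The arrays differed in ways that bear on all values. Trimmed means of the signals as deposited were 77.6 and 66.6 on the wild type arrays, 56.0 and 48.0 on the K11 arrays and 59.5 and 68.4 on those of K11-5, and the signals were quantile-normalized. Actin's 3' signal over its 5' signal, which rises as RNA degrades, stood at 8.10 and 7.15 on the wild type arrays, at 9.23 and 9.31 on those of K11 and at 6.29 and 5.28 on those of K11-5. For GAPDH the corresponding values were 0.892 and 0.917, 0.832 and 0.819, and 0.914 and 0.798, and so not higher in K11. HIST1H111L, a linker histone gene, had signals of 1650.0 and 2189 in wild type, then 5819 and 1594 in K11 cells and 4738 and 4430.3 in K11-5 cells, so the K11 arrays lay on both sides of wild type and the K11-5 arrays above it. HIST1H111R, a dimmer linker histone gene, had 9.17 and 1.17 in wild type, 33.0 and 21.2 in K11 cells and 34.7 and 16.8 in K11-5 cells. Both of its wild type signals were below the background of 11.4. H1FOO, a further linker histone gene, was at 1.94 to 13.2 and did not pass the filter on low signals. The sources used here do not say which copies K11 lacks. In K11-5, labelled a complete H1 null, the signals of HIST1H111L and HIST1H111R lay above those of wild type, and what these probe sets detect there was not tested. Of 13 B cell markers, 10 were above the background signal of 11.4 in wild type, with PAX5, BANK1 and CXCR5 below it. The summed signal of these markers was 7717 and 9402 on the wild type arrays, 14010 and 15610 on the K11 arrays and 6149 and 3000 on those of K11-5. Over the 12 tested, the median log2 fold change was 0.03 in K11, with 6 positive and 6 negative. In K11-5 it was -2.24, with 3 positive and 9 negative. By limma at an adjusted p under 0.05, 1 was lower and 2 were higher in K11, and 6 were lower and 1 higher in K11-5. The summed signal of 6 myeloid markers was 510.1 and 602.4, 1458 and 1338, and 963.5 and 1150. Over the 4 of them tested, the median log2 fold change was 1.41 in K11, with 4 positive, and 0.31 in K11-5, with 3 positive and 1 negative. By limma 2 of these were higher in K11 and 1 in K11-5, and 0 were lower in either. Over all genes tested, 5.19% were lower and 5.01% higher in K11, and 3.62% and 3.47% in K11-5. CD3D, a T cell receptor component, carried most of a T cell sum of 1227 and 1272 in wild type, then 1267 and 946.7 in K11 cells and 273.9 and 480.5 in K11-5 cells, CD4 and CD3E were below background in every group, 3 erythroid markers summed to between 23.3 and 38.75, and 8 fibroblast markers, mostly VIM, to between 964.9 and 1616. Which part these differences have in the results was not tested. In bulk RNA, fewer cells of a type and less RNA per cell cannot be told apart.

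K11 was compared with wild type to ask how the genes of each complex differ in the line labelled as an H1 knock out. In K11, 6 of the 43 genes fell and 0 rose by limma at an adjusted p under 0.05, where 5.19% of all genes tested fell and 5.01% rose. The genes that fell were NDUFS6, NDUFA8 and NDUFB1 of complex I, SDHA of complex II, and COX6C and NDUFA4 of complex IV. They fell by 0.58 to 0.87 on the log2(signal + 2) scale. The median over the 43 genes was -0.22, beside 0.0022 over all genes tested, and 33 of the 43 values were negative. At an unadjusted p under 0.05, 13 were lower and 1 was higher, beside 13.2% of all genes in each direction. In 21 genes both K11 arrays lay below both wild type arrays and in 9 both lay above, beside 28% and 27.5% of all genes. The calls depended on single arrays. The 6 calls were not kept without either wild type array, where far fewer of all genes passed as well. The differences themselves stayed close, at -0.87 and -0.89 for NDUFS6 and -0.69 and -0.84 for SDHA. NDUFA4, NDUFB1 and COX6C lost their calls without K11 replicate 1, at -0.49, -0.50 and -0.465. Relative to the wild type mean, the median of the 43 genes was -0.34 in K11 replicate 1 and -0.071 in K11 replicate 2.

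In K11-5, 3 of the 43 genes fell and 0 rose, where 3.62% of all genes tested fell and 3.47% rose. These were NDUFS6, SDHA and COX6C, all of which fell in K11 as well. The median was -0.11 beside 0.021 over all genes tested, 29 of 43 values were negative, and at an unadjusted p under 0.05, 7 were lower and 4 were higher, beside 11.3% and 11.8% of all genes. Both K11-5 arrays lay below both wild type arrays in 19 genes and above them in 9, beside 27.6% and 29.3% of all genes. The 3 calls were not kept without 1 of the wild type arrays or 1 of the K11-5 arrays, where fewer of all genes passed as well. In these fits NDUFS6 lay between -0.70 and -0.67, SDHA between -0.74 and -0.59 and COX6C between -0.68 and -0.60. The plot of the 43 genes by array shows the value of each gene on each array.

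**Figure D1:**
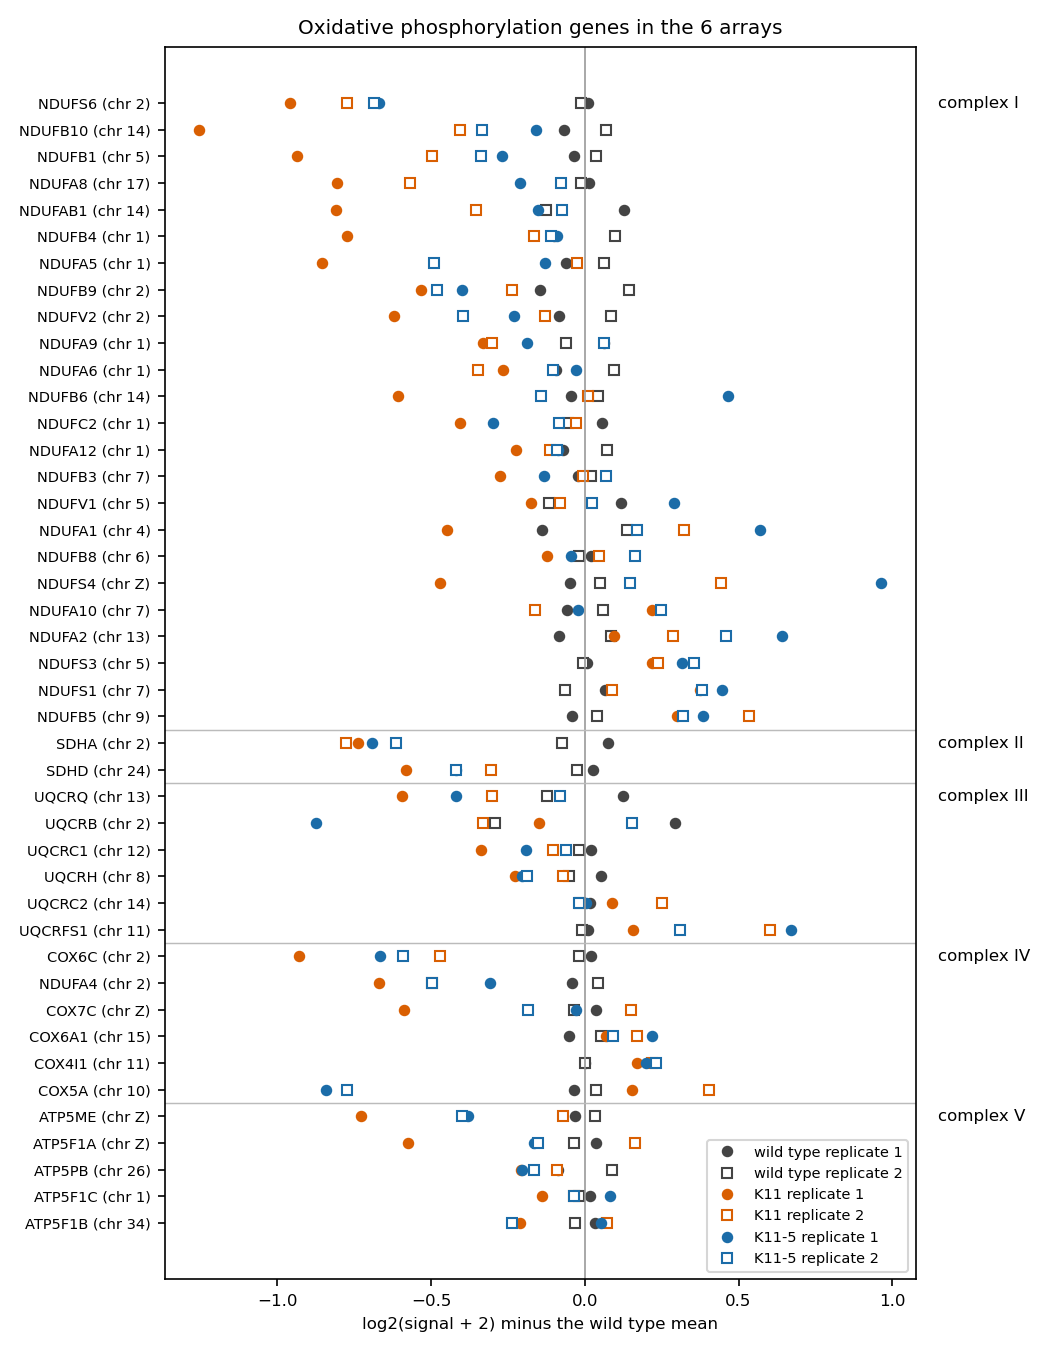
Each row is 1 of the 43 oxidative phosphorylation genes with its chromosome, grouped by complex, and each symbol is 1 of the 6 arrays; the horizontal axis is log2(signal + 2) minus the wild type mean. K11 replicate 1, the filled orange circle, was lowest most often among the complex I genes, and NDUFS6, SDHA and COX6C lay below wild type in all arrays of both lines.

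Complex I, the NADH dehydrogenase, had 3 of 24 genes lower in K11 and 1 lower in K11-5. NDUFS6 is an accessory subunit of the matrix arm. Its signals were 2073 and 2039.8 on the wild type arrays, 1056 and 1201 on the K11 arrays and 1291 and 1278 on those of K11-5. All arrays of both lines lay well below both wild type arrays, and the K11-5 arrays lay a little above the K11 arrays. NDUFS6 was 1.82-fold lower in K11, a fall of 0.87 ± 0.13 (SE, n = 2 arrays per group) on the log2 scale, with limma's adjusted p = 0.00474. In K11-5 it fell by 0.68 ± 0.13, with adjusted p = 0.0155. A second bright probe set of this gene had log2 fold changes of -1.02 and -0.69 and passed in K11 only (limma's adjusted p = 0.0136 and 0.0721).

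NDUFA8 is an accessory subunit on the intermembrane space side. Its signals were 1566 and 1536 in wild type, then 886 and 1046 in K11 cells and 1339.8 and 1471 in K11-5 cells. Both K11 arrays were low, while the K11-5 arrays lay between K11 and wild type without overlapping either. It fell by 0.69 ± 0.14 in K11 (limma's adjusted p = 0.0164) and was at -0.14 ± 0.14 in K11-5 (adjusted p = 0.639). NDUFB1, a small subunit of the membrane arm, had 1568 and 1647 on the wild type arrays, 839 and 1137 on the K11 arrays and 1332 and 1270.5 on those of K11-5. It had the same order, with K11 lowest and K11-5 between. In K11 it fell by 0.72 ± 0.16 (adjusted p = 0.0242), and in K11-5 it was at -0.30 ± 0.16 (adjusted p = 0.344).

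The brightest and the dimmest complex I genes did not pass in either line. NDUFA12, an accessory subunit of the matrix arm and the brightest, had signals of 2120.0 and 2339.9 in wild type, then 1908 and 2058 in K11 cells and 2096 and 2093 in K11-5 cells. Both lines lay just below wild type, at -0.17 ± 0.12 and -0.09 ± 0.12. NDUFS4, which is needed to complete complex I assembly, was the dimmest, with 42.5 and 45.7 on the wild type arrays, 31.2 and 60.6 on the K11 arrays and 87.9 and 49.1 on those of K11-5. Its K11 arrays lay on either side of wild type and its K11-5 arrays above, at 0.56 ± 0.38. The K11-5 arrays differed widely from each other, and the 95% interval of that difference ran from -0.28 to 1.40. Over the other 19 genes of the complex, log2 fold changes ran from -0.83 for NDUFB10, a membrane arm subunit, to 0.42 for NDUFB5 in K11, and from -0.44 for NDUFB9 to 0.55 for NDUFA2 in K11-5; these were named after their values were seen. NDUFB10 had 904 and 995 in wild type, then 396 and 714 in K11 cells and 849 and 752 in K11-5 cells, and its adjusted p in K11 was 0.0652.

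The complex I median was -0.26 in K11 and -0.065 in K11-5, with 19 and 14 of 24 values negative. The 2 K11 arrays differed in this. Relative to the wild type mean, the complex I median was -0.43 in K11 replicate 1 and -0.097 in K11 replicate 2, and in the K11-5 arrays it was -0.089 and -0.075. Over all 43 genes the same medians were -0.34 and -0.071 in K11 and -0.13 and -0.085 in K11-5, while all genes tested lay between 0.0024 and 0.035. K11 replicate 1 was below both wild type arrays in 32 of the 43 genes and K11 replicate 2 in 23, beside 40.4% and 41.4% of all genes; the K11-5 arrays were below in 25 and 26, beside 39.2% in each. The typical gene of the 43 differed by 0.27 on the log2 scale between the K11 arrays, 0.099 between the wild type arrays and 0.13 between the K11-5 arrays. Over all genes tested these differences were larger, at 0.37, 0.23 and 0.29, and also largest between the K11 arrays.

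**Figure D2:**
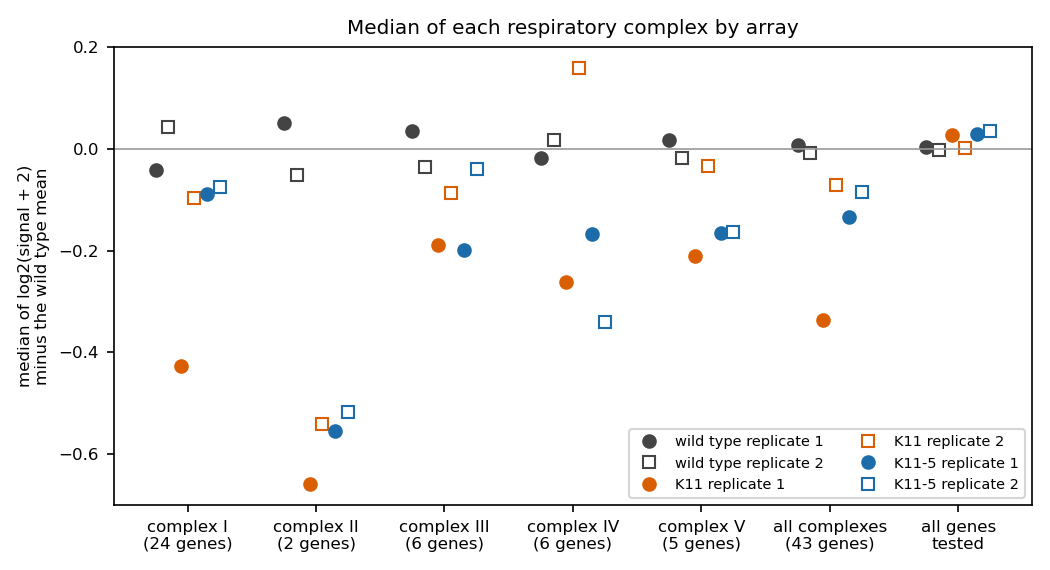
Points are the median over the genes of each complex of log2(signal + 2) minus the wild type mean, 1 point per array, filled for replicate 1 and open for replicate 2. For complex I, K11 replicate 1 stood at -0.43 and the other arrays of both lines between -0.097 and -0.075, while for complex II all arrays of both lines lay between -0.66 and -0.52.

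Complex II, succinate dehydrogenase, links the tricarboxylic acid cycle to electron transport and was measured here by SDHA and SDHD. SDHA is the flavoprotein that oxidises succinate. Its signals were 2185 and 1971 on the wild type arrays, 1244 and 1210.1 on the K11 arrays and 1284 and 1354 on those of K11-5. The 4 arrays of the lines formed a tight low group. SDHA was 1.69-fold lower in K11, a fall of 0.76 ± 0.12 (limma's adjusted p = 0.00804), and 1.57-fold lower in K11-5, a fall of 0.65 ± 0.12 (adjusted p = 0.0166). SDHD, a membrane anchor of the complex, had 1393 and 1342 in wild type, then 913 and 1107 in K11 cells and 1022 and 1021 in K11-5 cells. Both lines lay below wild type without overlap, but at -0.44 ± 0.14 and -0.42 ± 0.14 neither passed (adjusted p = 0.0918 and 0.127). SDHA is on chromosome 2 and SDHD on chromosome 24. The median of chromosome 24 was -0.20 in K11 and -0.30 in K11-5, and relative to it SDHD was at -0.24 and -0.12. Relative to the median of each gene's own chromosome, the 2 genes had a median of -0.32 in K11 and -0.21 in K11-5.

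In complex III, the cytochrome bc1 complex, 0 of 6 genes passed in any comparison by limma, with UQCRQ lower in K11 and UQCRFS1 higher in K11-5 at an unadjusted p under 0.05. UQCRQ, a small structural subunit, had signals of 1497 and 1259 on the wild type arrays, 907 and 1114 on the K11 arrays and 1026 and 1296 on those of K11-5. Its K11 arrays were below wild type, at -0.45 ± 0.17 (adjusted p = 0.151), and its K11-5 arrays overlapped wild type. UQCRFS1, the Rieske iron-sulfur protein that carries electrons to cytochrome c1, had 777 and 767 in wild type, then 861 and 1173 in K11 cells and 1229.7 and 958 in K11-5 cells. All arrays of both lines lay above both wild type arrays, at 0.38 ± 0.18 and 0.49 ± 0.18 (adjusted p = 0.265 and 0.170), and on the deposited scale the K11 value was -0.19, which is 0.16 above the median of all genes there. UQCRH, the hinge protein and the brightest of the complex, had 3961 and 3687 on the wild type arrays, 3263 and 3637 on the K11 arrays and 3314 and 3354 on those of K11-5. Its probe set is annotated as UQCRHL and was read here as UQCRH. Both lines lay slightly below wild type, at -0.15 ± 0.11 and -0.20 ± 0.11. UQCRB, a ubiquinone-binding subunit and the dimmest, ranged from 77.2 to 176 with all groups overlapping. The complex III median was -0.18 in K11 and -0.16 in K11-5.

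Complex IV, cytochrome c oxidase, reduces oxygen to water. Of its 6 genes, 2 fell in K11 and 1 in K11-5, and 0 rose in either. COX6C, a small membrane subunit, had signals of 2869 and 2792 in wild type, then 1486 and 2039.8 in K11 cells and 1783 and 1876 in K11-5 cells. Both lines lay below wild type, with the lowest array in K11. It fell by 0.70 ± 0.15 in K11 (limma's adjusted p = 0.0227) and by 0.63 ± 0.15 in K11-5 (adjusted p = 0.0421). A dimmer COX6C probe set was at 0.00028 in K11 and -0.73 in K11-5. With the mean of both probe sets COX6C was at -0.35 in K11 (adjusted p = 0.315) and -0.68 in K11-5 (adjusted p = 0.0784).

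NDUFA4 had 3314 and 3509.9 on the wild type arrays, 2142 and 2415 on the K11 arrays and 2756 and 2415 on those of K11-5. Both lines were lower than wild type and overlapped each other. The fall of 0.58 ± 0.12 in K11 passed (adjusted p = 0.0194), and the difference of -0.40 ± 0.12 in K11-5 did not (adjusted p = 0.0918). COX4I1, a large nuclear subunit and the brightest of the 43 genes, had 3541 and 3541 in wild type, then 3982 and 4123 in K11 cells and 4063 and 4155 in K11-5 cells. Both lines lay above wild type by a small step, 0.19 ± 0.10 and 0.21 ± 0.10, which did not pass (adjusted p = 0.297 and 0.279), and on the deposited scale the K11 value was -0.096, which is 0.26 above the median of all genes there. The complex IV median was -0.051 in K11, where K11 replicate 1 alone gave -0.26 and K11 replicate 2 gave 0.16, and -0.25 in K11-5.

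COX5A, a nuclear subunit on the matrix side, was the one gene of the 43 that differed between the lines by limma. Its signals were 102 and 108 on the wild type arrays, 117 and 139.6 on the K11 arrays and 57.8 and 60.6 on those of K11-5. K11 lay above wild type and K11-5 below it, with no overlap among the groups. COX5A fell by 1.09 ± 0.23 in K11-5 against K11, a 2.12-fold lower level (adjusted p = 0.0388), where 2.33% of all genes tested fell and 1.55% rose. Against wild type it was at 0.28 ± 0.23 in K11 (adjusted p = 0.538), or -0.15 on the deposited scale and 0.20 above the median of all genes there, and -0.81 ± 0.23 in K11-5 (adjusted p = 0.0724). COX5A is on chromosome 10, whose median was -0.47 in K11 and -0.37 in K11-5. Relative to the chromosome's median it was at 0.74 in K11, -0.44 in K11-5 and -1.16 in K11-5 against K11. Its second probe set was dimmer, with signals from 19.2 to 26.9, and stood at 0.24 in K11-5 against K11. On the deposited scale the difference was -0.86 and did not pass (adjusted p = 0.118), although relative to the median of all genes it was -1.12 on both scales. The call was lost with the mean of the 2 probe sets, at -0.42 (adjusted p = 0.351). With any array other than K11 replicate 1 left out, the difference was between -0.97 and -1.12 and did not pass (adjusted p from 0.0663 to 0.168).

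In complex V, the ATP synthase, 0 of 5 genes passed in any comparison by limma, with 0 at an unadjusted p under 0.05. ATP5F1A, the alpha subunit of the catalytic head, had signals of 1736 and 1652 in wild type, then 1136 and 1899 in K11 cells and 1509.9 and 1525 in K11-5 cells. Its K11 arrays fell on either side of wild type, and its K11-5 arrays lay just below. Its probe set is annotated to the copy on chromosome Z; whether it also detects the copy on W was not tested. ATP5ME, subunit e of the membrane part, had 1846 and 1930.3 on the wild type arrays, 1139 and 1798 on the K11 arrays and 1451 and 1432 on those of K11-5. Both lines lay below wild type, at -0.40 ± 0.19 and -0.39 ± 0.19 (adjusted p = 0.257 and 0.305). ATP5PB, subunit b of the peripheral stalk, had 2539.9 and 2869 in wild type, then 2335 and 2535 in K11 cells and 2339.9 and 2408 in K11-5 cells. It was a little lower in both lines without overlap, at -0.15 ± 0.12 and -0.19 ± 0.12, with 95% intervals from -0.41 to 0.11 and from -0.45 to 0.08. The complex V medians were -0.15 and -0.16.

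K11-5 was set against K11 to ask whether the 2 lines differ from each other. COX5A fell and 0 of the 43 genes rose by limma, with 4 higher and 1 lower at an unadjusted p under 0.05, beside 11.4% and 9.94% of all genes. The median of the 43 genes was 0.11, beside 0.033 over all genes tested. In complex I, 22 of 24 values were positive, with a median of 0.22. Both K11-5 arrays were above both K11 arrays in 13 of those 24 genes and below them in 0, while over the 43 genes they were above in 14 and below in 2, beside 25.6% and 22.5% of all genes. NDUFA8 was at 0.54 ± 0.14 (adjusted p = 0.0678) and NDUFB1 at 0.41 ± 0.16 (adjusted p = 0.210). Without K11 replicate 2 the median was 0.24, and without K11 replicate 1 it was 0.011. On the deposited scale 6 genes of the 43 rose and 0 fell, beside 5.36% and 1.38% of all genes. With arrays centred on their medians 3 rose and 1 fell, beside 5.75% and 1.79%.

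The 43 genes lay on 19 chromosomes of the RefSeq assembly GRCg7b, with 7 on chromosome 2 and 7 on chromosome 1. Of the 6 genes that fell in K11, 4 are on chromosome 2, namely NDUFS6, SDHA, COX6C and NDUFA4, and all 3 that fell in both lines are on it. NDUFA8 and NDUFB1 are on chromosomes 17 and 5. Genes of chromosome 2 were lower as a whole in both lines. The median over its 876 tested genes was -0.36 in K11 and -0.36 in K11-5, 71.7% and 74.2% of the values were negative, and 18.7% and 12.2% of the genes fell while 1.94% and 1.83% rose. The 7 oxidative phosphorylation genes there had medians of -0.58 and -0.44, and all 7 were negative in both lines. Taken relative to the chromosome's median, NDUFS6 was at -0.50 in K11 and -0.31 in K11-5, SDHA at -0.39 and -0.29, COX6C at -0.34 and -0.27 and NDUFA4 at -0.22 and -0.038.

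The shift of chromosome 2 was spread along its length. Medians over windows of 21 neighbouring tested genes were negative in 98.7% of positions in K11 and 99.4% in K11-5, and ran from -0.995 to 0.094 and from -0.89 to 0.069. The oxidative phosphorylation genes are not spread evenly along it. In the order of the 876 tested genes, NDUFA4 was at 206 and all the others were between 537 and 834. SDHA is close to NDUFS6 and UQCRB close to COX6C. Among the 20 tested neighbours of SDHA, 14 were negative in K11 and 13 in K11-5, with medians of -0.24 and -0.46. Around NDUFA4 the neighbours' medians were -0.12 and -0.055, with 12 and 11 of 20 negative, so NDUFA4 lay further below wild type than its neighbours' medians. The same held in both lines for NDUFS6, SDHA, COX6C and NDUFV2, but not for UQCRB and NDUFB9. NDUFB9 and NDUFV2, complex I subunits on the same chromosome, were at -0.39 and -0.38 in K11 and -0.44 and -0.31 in K11-5, close to the chromosome's median, and did not pass; both were named after their values were seen.

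**Figure D3:**
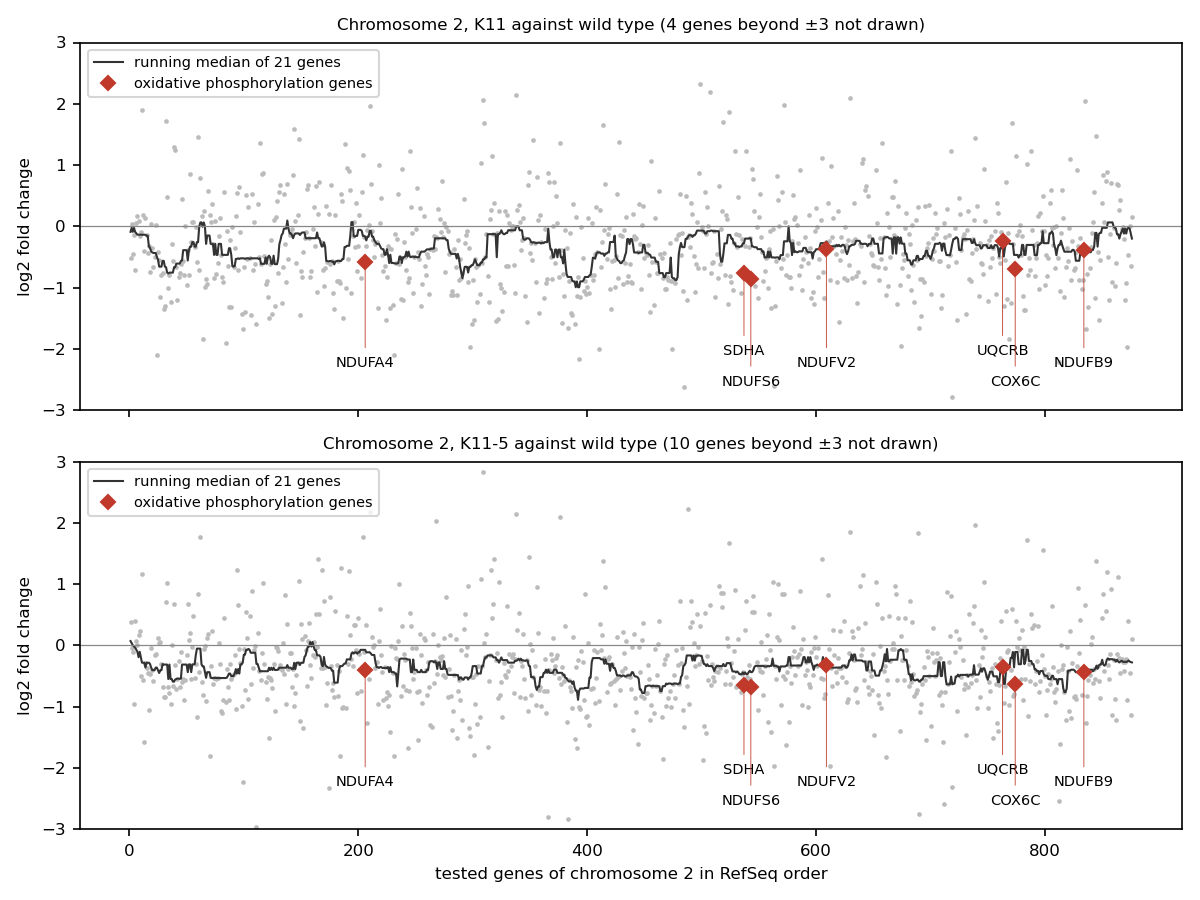
Grey points are the log2 fold changes of the tested genes of chromosome 2 against wild type in RefSeq order, the line is their running median over 21 genes, and red diamonds are the 7 oxidative phosphorylation genes. The running median stayed below 0 over nearly the whole chromosome in both lines, and all 7 diamonds were below 0.

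The opposite direction was seen on chromosomes 9 and 11, where all genes tested had a combined median of 0.48 in K11 and 0.46 in K11-5. The 3 oxidative phosphorylation genes there, NDUFB5, UQCRFS1 and COX4I1, were positive in both lines. In that order, relative to the median of their own chromosome, they were at -0.042, -0.11 and -0.29 in K11. In K11-5 these values were -0.088, 0.00024 and -0.28. NDUFB5, a membrane arm subunit of complex I named after its values were seen, had signals of 1544 and 1634 on the wild type arrays, 1956 and 2299 on the K11 arrays and 2073 and 1980.5 on those of K11-5. All arrays of both lines lay above wild type, at 0.42 ± 0.13 and 0.35 ± 0.13, and neither passed (adjusted p = 0.0792 and 0.157). The sign of every positive K11 value among the 43 genes turned with the scaling, which moved all genes. These 3 genes were at -0.12, -0.19 and -0.096 on the deposited scale, where all genes had a median of -0.35, and so above that median by 0.23, 0.16 and 0.26. With arrays centred on their medians they were at -0.041, -0.11 and -0.021.

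Across the 43 genes, the log2 fold change correlated with the median of the gene's chromosome with r = 0.517 in K11 and 0.719 in K11-5, and with rho = 0.413 and 0.677. In K11-5 against K11 these were 0.148 and 0.311. Genes of 1 chromosome share its median, and each median includes the genes themselves, so these are descriptions. Leaving out the 16 genes on the 10 chromosomes set apart in earlier work on these data (2, 9, 10, 11, 22, 24, 25, 27, Z and W), 27 genes remained. Of these, 2 fell in K11, NDUFA8 and NDUFB1, and 0 fell in K11-5, with medians of -0.15 and -0.066. Chromosome 2 holds 4 of the 6 genes that fell in K11 and all 3 that fell in K11-5. These 2 counts therefore follow from which genes were left out and are not a test. At an unadjusted p under 0.05, 7 of the 27 were lower and 0 higher in K11, and 0 were lower and 2 higher in K11-5. The shares of all genes given above include the chromosomes left out here, so they are not a matched background for the 27. Relative to the median of each gene's own chromosome, the 43 genes had a median of -0.16 in K11, -0.11 in K11-5 and 0.066 in K11-5 against K11.

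**Figure D4:**
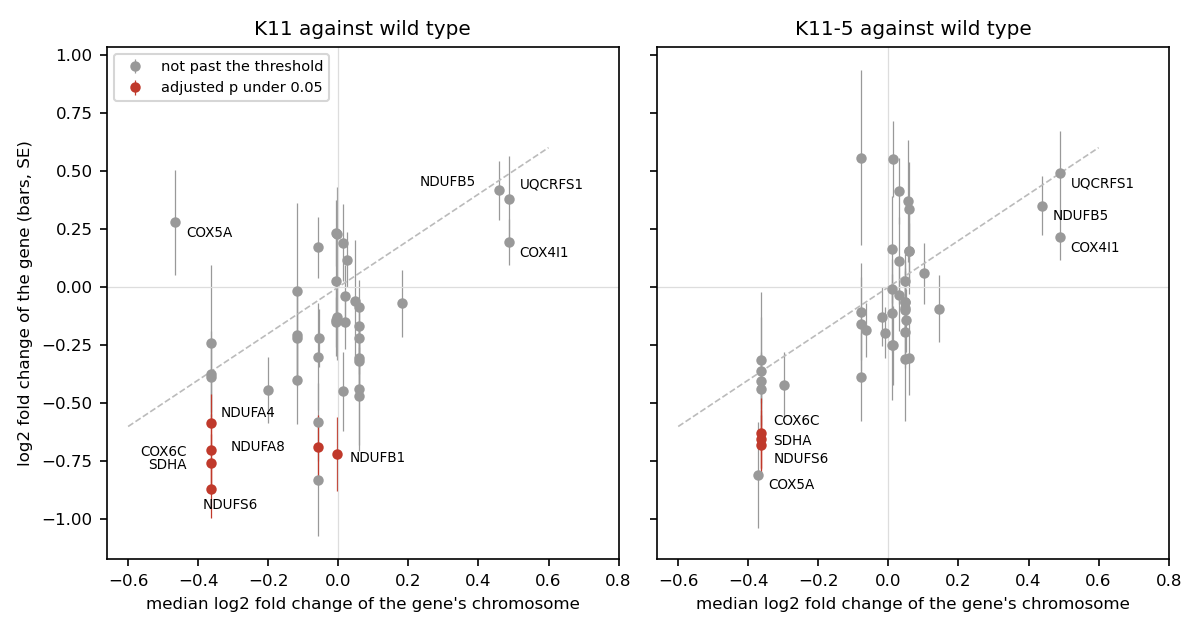
Each point is 1 of the 43 genes, with the median log2 fold change of all tested genes of its chromosome on the horizontal axis and its own log2 fold change with its SE on the vertical axis; the dashed line marks equal values and red marks an adjusted p under 0.05. The genes of chromosome 2 stand at the left, those of chromosomes 9 and 11 at the right, and NDUFA8 and NDUFB1 were the red points on chromosomes with medians near 0.

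How the arrays were put on 1 scale set the size of the K11 difference. On the deposited scale 28 of the 43 genes fell in K11, beside 15.6% of all genes, and 0 rose, beside 1.51%. The median of the 43 was -0.72 and that of all genes -0.35, a difference of -0.36. With arrays centred on their medians 22 fell, beside 16.8% of all genes, and the difference of the medians was -0.36, while after quantile normalization it was -0.22. On either of these scales all 43 K11 values were negative, 10 of them turned from positive, and 37 and 36 lay below the median of all genes, where 33 did after quantile normalization. In K11-5 the count was 3 under each scaling, beside 3.62% of all genes after quantile normalization, 4.43% on the deposited scale and 6.41% with centred arrays. The genes were not the same throughout, since COX6C did not pass with centred arrays, at -0.72 (limma's adjusted p = 0.0522). The difference from the median of all genes was -0.13 under each scaling.

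Other genes of mitochondrial energy metabolism were read from further lists. Among 25 further subunits of the complexes, 2 fell and 0 rose in K11, and 1 rose and 0 fell in K11-5, with medians of -0.12 and -0.047. Over all genes tested, the background for each list that follows, 5.19% fell and 5.01% rose in K11, and 3.62% fell and 3.47% rose in K11-5. UQCR11, the smallest complex III subunit, had signals of 1978 and 1906 in wild type, then 476 and 1011 in K11 cells and 1501 and 1497 in K11-5 cells. Its K11 arrays were far below the others and far apart, and it fell by 1.48 ± 0.27 in K11 (limma's adjusted p = 0.0124) and was at -0.37 ± 0.27 in K11-5. COX7A2L, which joins complexes III and IV in supercomplexes, had 1501 and 1611 on the wild type arrays, 891 and 897 on the K11 arrays and 1038 and 1394 on those of K11-5, and fell by 0.80 ± 0.16 in K11 (adjusted p = 0.0163). DMAC2L, a coupling subunit of the ATP synthase, rose by 0.97 ± 0.22 in K11-5 (adjusted p = 0.0307). ATP5IF1, the inhibitor of ATP hydrolysis by complex V, was at 0.40 ± 0.11 in K11-5 and did not pass (adjusted p = 0.0633).

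Assembly factors build the complexes without being part of them. Of 39 tested, 8 fell and 0 rose in K11, and 2 fell and 1 rose in K11-5, with medians of -0.34 and -0.015, and only 1 of the 8 is on chromosome 2. TIMMDC1, a complex I assembly factor on chromosome 1, had 448 and 542 in wild type, then 223 and 235 in K11 cells and 232 and 205 in K11-5 cells. Every array of both lines lay well below wild type, and it fell by 1.10 ± 0.18 in K11 (adjusted p = 0.00847) and by 1.17 ± 0.18 in K11-5 (adjusted p = 0.00749). TMEM70, needed for ATP synthase assembly and located on chromosome 2, fell by 1.12 ± 0.16 and 0.98 ± 0.16 (adjusted p = 0.0041 and 0.00854).

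COX17, a copper chaperone for complex IV, had 352 and 406 on the wild type arrays, 108 and 169 on the K11 arrays and 272 and 277 on those of K11-5. COX18, which helps insert a core subunit of complex IV into the membrane, had 242 and 235 in wild type, then 75.3 and 116 in K11 cells and 207 and 203 in K11-5 cells. For both, K11 was lowest and K11-5 lay between K11 and wild type. COX17 fell by 1.47 ± 0.23 and COX18 by 1.33 ± 0.23 in K11 (adjusted p = 0.00633 and 0.0104), and they rose by 1.02 ± 0.23 and 1.12 ± 0.23 in K11-5 against K11 (adjusted p = 0.0491 and 0.0388). In that comparison 4 of the 39 assembly factors rose and 0 fell, beside 1.55% and 2.33% of all genes.

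Among 13 genes of electron carriers and coenzyme Q synthesis, 2 fell and 0 rose in each line, and both genes, CYCS and PDSS1, are on chromosome 2. CYCS encodes cytochrome c, which carries electrons from complex III to complex IV. Its signals were 3517 and 3243 on the wild type arrays, 1239.8 and 1724 on the K11 arrays and 2179.6 and 2063 on those of K11-5. The order was K11, K11-5 and wild type with no overlap. CYCS fell by 1.21 ± 0.16 in K11 (adjusted p = 0.00269) and by 0.67 ± 0.16 in K11-5 (adjusted p = 0.0361), and relative to the chromosome's median it was at -0.84 and -0.31. PDSS1, which makes the side chain of coenzyme Q, fell by 1.30 ± 0.26 and 1.08 ± 0.26 (adjusted p = 0.0177 and 0.0439). PDSS2, its partner on chromosome 3, was at -0.12 ± 0.22 in K11 and 0.60 ± 0.22 in K11-5, and COQ5, a methyltransferase of the same pathway, at 0.17 ± 0.19 and -0.35 ± 0.19; neither passed.

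Of 14 tricarboxylic acid cycle genes, 1 fell in K11 and 0 in K11-5, with 6 and 4 lower at an unadjusted p under 0.05 by limma, beside 13.2% and 11.3% of all genes. The gene was FH, fumarase, on chromosome 2, with 1405 and 1397 in wild type, then 659 and 949 in K11 cells and 1058 and 1002 in K11-5 cells. It fell by 0.82 ± 0.17 in K11 (adjusted p = 0.0207) and was at -0.44 ± 0.17 in K11-5 (adjusted p = 0.195). PDHB, a subunit of pyruvate dehydrogenase, and SUCLA2, a subunit of succinyl-CoA ligase, were at -0.55 ± 0.15 and -0.65 ± 0.19 in K11 and did not pass. DLAT was dim, from 4.05 to 43.8, and at 1.70 ± 0.54 in K11 (adjusted p = 0.0888). The list's median was -0.29 in K11 and -0.023 in K11-5.

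Of 14 regulators of mitochondrial transcription and biogenesis, 2 fell in K11 and 1 in K11-5, and 0 rose in either. TFB2M, a factor that opens mitochondrial promoters, had 444 and 393 on the wild type arrays, 200.1 and 178 on the K11 arrays and 258 and 243 on those of K11-5. All arrays of the lines were below wild type, and it fell by 1.14 ± 0.18 in K11 (adjusted p = 0.00672) and by 0.74 ± 0.18 in K11-5 (adjusted p = 0.0439). TFAM, which packages and activates mitochondrial DNA, had 614 and 595 in wild type, then 301 and 375 in K11 cells and 499 and 491 in K11-5 cells. It fell by 0.84 ± 0.17 in K11 (adjusted p = 0.0162) and was at -0.29 ± 0.17 in K11-5 (adjusted p = 0.406). TFB2M and TFAM are on chromosomes 3 and 6, whose medians were near 0.

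The nuclear regulators of the respiratory genes did not pass in any comparison. NRF1 and GABPA, transcription factors of many respiratory genes in mammals, were at 0.64 ± 0.32 and 0.05 ± 0.16 in K11, while K11-5 had -0.22 ± 0.32 and -0.12 ± 0.16. The coactivator PPARGC1A ranged from 7.37 to 35.9 and PPARGC1B from 4.4 to 19.0, with some arrays of each below the background of 11.4. MYC, a transcription factor of growth and mitochondrial genes, was at -0.33 ± 0.16 in K11 and 0.02 ± 0.16 in K11-5. POLRMT, the mitochondrial RNA polymerase, was at -0.66 ± 0.26 and 0.36 ± 0.26, and TFB1M, a methyltransferase of mitochondrial ribosomal RNA, at 0.04 ± 0.17 and -0.61 ± 0.17.

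Mitochondrial ribosomal proteins, which translate the mitochondrially encoded subunits, changed in both directions. Of 64 tested, 9 fell and 4 rose in K11, and 6 fell and 8 rose in K11-5, with medians of -0.27 and 0.013. Of the 9 that fell in K11, 7 are on the chromosomes set apart above, 5 of them on chromosome 2, and of the 8 that rose in K11-5, 6 are on those chromosomes. MRPL53 and MRPL32 of chromosome 2 fell by 1.53 ± 0.16 and 1.14 ± 0.19 in K11 (adjusted p = 0.00104 and 0.00886), and MRPS11 of chromosome 10 fell by 1.17 ± 0.20 (adjusted p = 0.01). MRPS21 of chromosome 25 rose from 1043 and 1169.6 to 2364 and 2172 in K11 and to 1684 and 1505 in K11-5 (adjusted p = 0.0025 and 0.047). Among 25 genes of mitochondrial import, 2 fell and 0 rose in K11, and 1 fell and 1 rose in K11-5. TOMM7, a small part of the outer membrane pore on chromosome 2, fell by 0.83 ± 0.12 and 0.76 ± 0.12 (adjusted p = 0.00385 and 0.007). TIMM17B, part of the inner membrane channel, fell by 0.39 ± 0.10 in K11 (adjusted p = 0.0407), TIMM8A, a chaperone between the membranes, rose by 1.06 ± 0.25 in K11-5 (adjusted p = 0.0367), and HSPD1, the matrix chaperonin, was at -0.50 ± 0.15 and 0.13 ± 0.15.

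**Figure D5:**
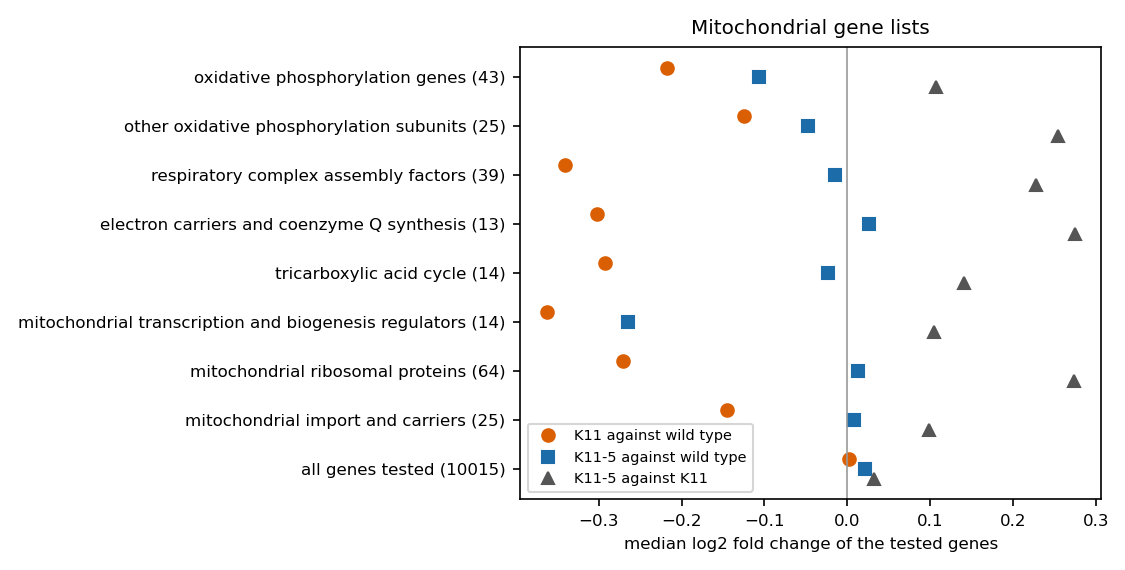
Symbols are the median log2 fold change over the tested genes of each list, with the number of genes in brackets, for the 3 comparisons. The 43 genes and the 7 further lists had medians from -0.36 to -0.12 in K11 and from -0.26 to 0.025 in K11-5, beside 0.0022 and 0.021 over all genes tested.

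Many of the 43 genes have further probe sets on the array. Of 18 with more than 1 tested probe set, all had the same sign in 8 genes in K11 against wild type, in 7 in K11-5 against wild type and in 7 in K11-5 against K11. NDUFA9, a complex I subunit, is an example of signs that differ, with probe sets at -0.32 and 0.67 in K11. The second of these was dim, with signals from 6.56 to 28.7. For SDHD the second probe set was dim, with signals from 1.14 to 22.2, and stood at 1.26 in K11 where the bright one was at -0.44. NDUFS6 was negative against wild type at all 3 of its tested probe sets in both lines. The dimmest of these had signals from 0.926 to 14.2. It stood at -0.57 ± 0.75 (SE) in K11 and -1.58 ± 0.75 in K11-5, so its sign carries little weight. Where the counts rest on the mean of a gene's tested probe sets, 5 of the 43 genes passed in K11, 2 in K11-5 and 0 in K11-5 against K11. That fit has its own adjustment of p, and the share of all genes passing in it was not counted.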

How the data were processed

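Affymetrix chicken arrays were read from the table of intensity values that the authors deposited, 1 column per array; the software was GCOS, per the submitters' processing notes, and the sources used here give neither its version nor its algorithm or scaling. Signals were quantile-normalized over 38535 probe sets, 96 control probe sets were dropped, and log2(signal + 2) was used, which understates changes of dim genes. Probe sets at or above the 40th percentile of mean signal (5.83) were tested, 23063 of 38439. limma 3.58.1 (R 4.3.3; group means, eBayes with an intensity trend) gave differences with SE and Benjamini-Hochberg adjusted p over all of them, threshold 0.05; the number of arrays (3 residual degrees of freedom) limits precision. The code was tested on simulated data. Names came from the platform annotation: 27168 probe sets had 1 symbol, 177 several and 11094 none, and 26853 matched RefSeq GRCg7b, used for names, chromosomes and gene order only. The background is the 95th percentile of 23 control probe sets and was chosen after the data were seen.

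Genes named with all arrays were those past the threshold, the smallest F-test p until 3 per complex, and the brightest and dimmest of each complex; from other lists, up to 4 of smallest F-test p and the regulators PPARGC1A, PPARGC1B, NRF1, GABPA, TFAM and MYC. Genes and lists were chosen with earlier results of these data known. Alternatives changed the scaling, pseudocount, filter, variance trend, replicate block, probe set rule, chromosomes and arrays. Promoter sequences were not analysed here.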

Additional observations from a re-analysis of the deposited data

Results flagged for a closer look

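Among the genes named, COX5A, COX17 and COX18 differed between the lines, tested directly as K11-5 minus K11 by limma. COX5A was at -1.09 on the log2 scale, with K11 above and K11-5 below wild type, though neither line passed against wild type. On the deposited scale COX5A was at -0.15 in K11 against wild type, 0.20 above the median of all genes there. Its difference between the lines did not pass on that scale, nor with the mean of its 2 probe sets (limma's adjusted p = 0.118 and 0.351). COX17 was at 1.02 and COX18 at 1.12, both with K11 furthest below wild type. In this comparison 4 of 39 assembly factors, these 2 among them, and 2 of 64 mitochondrial ribosomal genes rose, beside 1.55% of all genes. Without the intensity trend 0 of all genes passed between the lines, and the other settings were not examined for COX17 and COX18.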

How the results depend on the processing

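Of the 10 calls of limma over the 3 comparisons, 10 held with a pseudocount of 16. On the deposited scale and with arrays centred on their medians, 9 held. With no filter and with the mean of a gene's probe sets, 7 held. The calls were not kept without either wild type array, where fewer of all genes passed as well. Without the intensity trend 0 held. Over all genes, 7 then passed for K11 and 15 for K11-5, each against wild type, and 0 between the lines. Without the trend the counts at an unadjusted p under 0.05 were 6 for K11 and 3 for K11-5, each against wild type, and 1 between the lines. With the trend, 13 were lower and 1 higher for K11, 7 and 4 for K11-5, and 1 and 4 between the lines. The share of all genes at this threshold without the trend was not counted. In that order, counts on the deposited scale were 28, 3 and 6 with medians of -0.72, -0.24 and 0.49, and with centred arrays 22, 3 and 4 with medians of -0.64, -0.24 and 0.42. Without the 16 genes of the shifted chromosomes, counts were 2, 0 and 0, which follows from where the called genes lie. With the mean of probe sets they were 5, 2 and 0, and the share of all genes passing in that fit was not counted. Leaving out 1 array changed the calls and gave medians from -0.34 to -0.071, -0.13 to -0.076 and 0.011 to 0.24. The lone array of a group is then assumed to vary like the others. Replicate numbers did not pair the arrays: deviations of same-numbered arrays correlated with r = 0.0598, -0.0388 and -0.032, and with the replicate block the counts were 6, 3 and 1.

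Direction turned only for values that had not passed. Scaling moved all genes together: on the deposited scale and with centred arrays, 10 of the 43 values turned in K11, 4 in K11-5 and 7 between the lines. The other causes were not tested. Among the named genes the values were as follows. In K11 against wild type, NDUFS4 was at 0.0014 with a pseudocount of 16, SDHD at 0.41 with the mean of probe sets, and UQCRFS1, COX4I1 and COX5A at -0.19, -0.096 and -0.15 on the deposited scale and -0.11, -0.021 and -0.074 with centred arrays. In K11-5 against wild type, SDHD was at 0.26 and UQCRFS1 at -0.11 with the mean of probe sets. In K11-5 against K11, the mean of probe sets gave -0.16 for NDUFS6, -0.15 for SDHD, 0.0091 for UQCRB, -0.48 for UQCRFS1 and -0.33 for COX6C. There UQCRB, UQCRH and ATP5PB were at 0.13, 0.30 and 0.37 on the deposited scale and 0.054, 0.22 and 0.29 with centred arrays. With 1 array left out, ranges in K11 against wild type were -0.48 to 0.44 for NDUFS4, -0.53 to 0.051 for UQCRB and -0.57 to 0.17 for ATP5F1A, and in K11-5 against wild type -0.87 to 0.15 for UQCRB. In K11-5 against K11 they were -0.12 to 0.16 for SDHD, -0.63 to 0.39 for UQCRB, -0.12 to 0.032 for UQCRH, -0.11 to 0.33 for UQCRFS1, -0.0045 to 0.038 for COX4I1, -0.15 to 0.30 for COX6C, -0.32 to 0.41 for ATP5F1A, -0.097 to 0.024 for ATP5PB and -0.32 to 0.34 for ATP5ME. Signals near the background of 11.4 limit the dim probe sets.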
